A study of Mus musculus with 8 samples.

Results

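The 10 genes described here, Gdf15, Cdkn1a, Btg2, Ccng1, Mdm2, Bbc3, Perp, Phlda3, Trp53inp1 and Sesn2, are established target genes of the transcription factor p53. They were chosen by name, with results of the comparison between genotypes already known, so their values and the counts of calls among them are given as a description, not as a test of the list. All 10 had a probe, with 16 probes in all, among 27670 gene names or identifiers carried by 41174 probes. All 16 probes were well above background on all 8 arrays, so the filter on dim probes removed none.

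Gene expression was measured in whole testes of male mice at postnatal day 8, with 4 biological replicates of wild type and 4 of VRK1-deficient mice and 1 array for each. VRK1-deficient mice carry a β-geo gene trap in intron 3 of Vrk1, which was introduced through 1 embryonic stem cell clone, and they are described as hypomorphic for VRK1. RNA was labeled with Cy3 and hybridized to 1-color Agilent whole genome arrays, and log2 signals below are given with the 75th percentile of the array as 0. The arrays came on 2 slides, with replicates 1 and 2 on the first and replicates 3 and 4 on the second. Each slide carried wild type RNA at positions 1 and 2 and VRK1-deficient RNA at positions 3 and 4, so position and genotype cannot be told apart. The share of spots well above background was 64.2% to 69.5% in wild type and 63.6% to 64.9% in VRK1-deficient testes. Precision is limited by the number of arrays.

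p53 is held at a low level by MDM2, which marks it for degradation, and by the related protein MDM4. When DNA damage or other stress frees it, p53 switches on genes that stop the cell cycle, promote apoptosis, aid repair and reset metabolism, and it also raises Mdm2, which closes a feedback loop. VRK1 is a kinase that phosphorylates p53 in the region bound by MDM2, and in the testis p53 takes part in the removal of damaged germ cells.

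Vrk1 itself was measured first, as a check of the labels. The log2 signals of Vrk1 were -0.20, -0.11, 0.59 and 0.35 on wild type arrays 1 to 4 and -3.97, -3.68, -3.58 and -4.17 on VRK1-deficient arrays 1 to 4. Every VRK1-deficient array lay far below every wild type array, and a second Vrk1 probe had a change of -3.93. Where these probes lie with respect to the gene trap was not determined.

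Wild type replicate 1 was nearer to the VRK1-deficient arrays than to its own group. Over 26941 probes, the root mean square difference in log2 signal between wild type replicate 1 and the other wild type arrays was 0.481 to 0.728, and between this array and the VRK1-deficient arrays it was 0.413 to 0.472. Wild type replicate 3 was as far from its group (0.493 to 0.728) but farther from the VRK1-deficient arrays (0.655 to 0.808). The Vrk1 signal of wild type replicate 1 was that of a wild type array. Several values below are therefore also given without it.

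Gdf15 encodes a secreted stress cytokine of the TGF-beta superfamily and had by far the widest difference of the 10 genes. Its log2 signals were -0.98, -2.40, -2.56 and -3.77 on wild type arrays 1 to 4. On VRK1-deficient arrays 1 to 4 they were 0.09, -0.83, 0.19 and -0.07. All VRK1-deficient arrays were above all wild type arrays, but the gap between the nearest arrays, wild type replicate 1 and VRK1-deficient replicate 2, was small. The wild type arrays were scattered (mean -2.43 ± 1.15, SD, n = 4), and the VRK1-deficient arrays lay closer together (-0.16 ± 0.46, SD, n = 4). The log2 change, VRK1-deficient minus wild type, was 2.27 (SE 0.51), a 4.82-fold higher signal. Slides 1 and 2 gave 1.31 and 3.22. Without wild type replicate 1 the change was 2.75, and on dropping any other single array it lay from 1.82 to 2.49. In whole testes, a change in the number of cells that express a gene and a change in RNA per cell cannot be told apart.

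The single Gdf15 probe is shown because the widest difference of the list rests on it alone. It is 60 bases long, lies on the minus strand of build mm7 at chr8:69084712-69084771 and reads without a stop codon in 2 of its 3 forward frames.
Gdf15 probe: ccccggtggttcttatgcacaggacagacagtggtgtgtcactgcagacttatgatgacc

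At a limma adjusted p under 0.05 over 26948 tested probes, 1 of the 10 genes, Gdf15, was called, and it was higher. Over all tested probes, 3.66% were called, 1.67% as higher and 1.99% as lower in VRK1-deficient testes. An unadjusted p under 0.05 was reached by 28.8%, and these shares are the background for every list below. For 2 of the 10 genes, Gdf15 and Bbc3, the genotypes did not overlap, against 16.7% of all tested probes. Of the brightest probes, 2 had a change above 0 and 8 a change below 0. Their median log2 change was -0.22, beside 0.04 over all tested probes. The calls depended on single arrays: without wild type replicate 1 Gdf15, Ccng1, Trp53inp1 and Perp were called, beside 28.4% of all tested probes, while on dropping any other single array limma called 0 of the 10 genes, beside 0.0111% to 0.252% of all tested probes. In those 7 cases 2 to 4 of the 10 had an unadjusted p under 0.05, beside 19.7% to 27.5% of all tested probes, and Gdf15 had one of 0.00153 to 0.00575, so its call was lost along with nearly all others on the array. Gdf15 was also not called within slide 1, with slide as a block (adjusted p = 0.052), with quantile normalization (adjusted p = 0.0506), with no filter on dim probes or by the methods' t-test with the same adjustment. It passed the cutoff of the methods, an unadjusted p under 0.05.

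**Figure D1:**
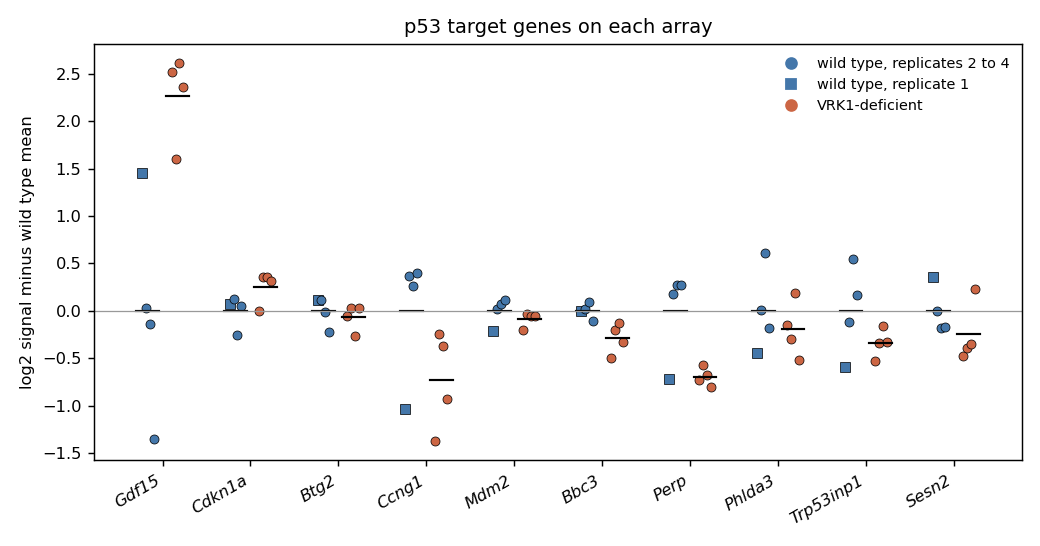
Log2 signal of the brightest probe of each of the 10 p53 target genes on every array, as the difference from the wild type mean. Points are arrays, squares mark wild type replicate 1, and black lines are group means (n = 4). Gdf15 is the gene whose group means lie farthest apart, and wild type replicate 1 lies near the VRK1-deficient arrays for Gdf15, Ccng1 and Perp.

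The genes that halt the cell cycle were examined next. Cdkn1a encodes the cyclin-dependent kinase inhibitor p21, the best known effector of arrest by p53. Wild type arrays 1 to 4 read -1.87, -1.82, -2.19 and -1.90, and VRK1-deficient arrays 1 to 4 read -1.94, -1.59, -1.58 and -1.63. The groups overlapped, because VRK1-deficient replicate 1 lay among the wild type arrays. The log2 change of Cdkn1a was 0.26 (SE 0.13), with 0.08 within slide 1 and 0.44 within slide 2. This probe was spotted 10 times on each array, and the SD between its spots was 0.042 to 0.127, below the SD between arrays in either genotype (0.17).

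Btg2 encodes an antiproliferative protein that acts on transcription and mRNA decay. On wild type arrays 1 to 4 its brightest probe read 1.66, 1.65, 1.53 and 1.32, and on VRK1-deficient arrays 1 to 4 it read 1.49, 1.57, 1.28 and 1.57. The genotypes overlapped, and the 3 Btg2 probes had changes of -0.07, -0.15 and -0.07, less than or about as much as the spread between replicates. For the brightest probe the change was 0.00084 without VRK1-deficient replicate 3.

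Ccng1 encodes cyclin G1, which works with a phosphatase in the control of MDM2. Its brightest probe read 1.27, 2.67, 2.56 and 2.70 on wild type arrays 1 to 4 and 0.92, 2.05, 1.93 and 1.37 on VRK1-deficient arrays 1 to 4. Wild type replicate 1 was far below the other wild type arrays and below 3 of the VRK1-deficient arrays. The log2 change of this probe was -0.73 (SE 0.36), and -1.07 without wild type replicate 1. The second Ccng1 probe had a change the other way, 0.25 (SE 0.13), and wild type replicate 1 did not stand apart on it. The direction of Ccng1 as a gene is therefore not given.

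Mdm2, the ubiquitin ligase that limits p53 and is itself raised by it, differed little. On its brightest probe, wild type arrays 1 to 4 read -0.13, 0.10, 0.16 and 0.20, and VRK1-deficient arrays 1 to 4 read -0.12, 0.05, 0.03 and 0.02. The ranges overlapped, with replicate 1 lowest in both genotypes. This probe had a change of -0.08 (SE 0.11), and the second probe, spotted 10 times on each array, had a change of -0.18 (SE 0.19).

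Among the genes of apoptosis, Bbc3 encodes PUMA, a BH3-only protein that binds antiapoptotic BCL2 proteins. On wild type arrays 1 to 4 the log2 signal was 1.31, 1.33, 1.41 and 1.21, and on VRK1-deficient arrays 1 to 4 it was 0.82, 1.11, 1.19 and 0.98. The genotypes did not overlap, by a narrow margin, with VRK1-deficient testes lower. The log2 change was -0.29 (SE 0.12), with -0.36 within slide 1 and -0.22 within slide 2, and the gene was not called.

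Perp encodes a membrane protein of desmosomes that also acts in apoptosis. The log2 signals of Perp were -3.57, -2.68, -2.58 and -2.58 on wild type arrays 1 to 4 and -3.58, -3.42, -3.53 and -3.66 on VRK1-deficient arrays 1 to 4. Here wild type replicate 1 lay with the VRK1-deficient arrays, and the other wild type arrays were all higher. The log2 change was -0.70 (SE 0.22), -0.38 within slide 1 and -1.01 within slide 2. It was -0.93 without wild type replicate 1 and -0.27 with normexp background correction.

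Phlda3 encodes a pleckstrin homology domain protein that restrains AKT. Wild type arrays 1 to 4 read 3.31, 3.77, 4.37 and 3.58, and VRK1-deficient arrays 1 to 4 read 3.61, 3.46, 3.94 and 3.24. The genotypes overlapped widely, and the log2 change was -0.19 (SE 0.24). It ranged from -0.34 without wild type replicate 1 to 0.011 without wild type replicate 3, so 1 array decided its sign.

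Trp53inp1 encodes a nuclear protein that promotes p53-dependent apoptosis and autophagy. On wild type arrays 1 to 4 its brightest probe read 1.67, 2.14, 2.81 and 2.43, and on VRK1-deficient arrays 1 to 4 it read 1.73, 1.92, 2.10 and 1.93. The lowest array of all was wild type replicate 1, and the other wild type arrays were higher than all VRK1-deficient arrays. The brightest probe had a change of -0.34 (SE 0.22), and the second probe had a change of -0.20. The change of the brightest probe was -0.54 without wild type replicate 1 and -0.16 without wild type replicate 3, with -0.08 within slide 1 and -0.60 within slide 2.

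Sesn2 encodes sestrin 2, which limits mTORC1 and responds both to p53 and to the integrated stress response. Its brightest probe read 4.14, 3.78, 3.61 and 3.62 on wild type arrays 1 to 4 and 3.31, 3.39, 3.44 and 4.02 on VRK1-deficient arrays 1 to 4. VRK1-deficient replicate 4 lay among the wild type arrays. The change of Sesn2 was -0.25 (SE 0.19), but it was -0.61 within slide 1 and 0.12 within slide 2, so its direction differed between slides. The second probe had a change of -0.36, with -0.74 within slide 1 and 0.02 within slide 2.

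Genes with a profile like that of Gdf15 over the 8 arrays were sought by the root mean square difference, with each probe centred on its own mean. Over the 26947 other tested probes its median was 1.35. The 5 named genes with the lowest values were 8030423J24Rik (0.268), Epha5 (0.304), Miox (0.321), Hsd17b1 (0.379) and Adamts16 (0.384). The first 2 were well above background on only 1 and 2 wild type arrays, so their distances rest in part on signals near background. Hsd17b1, which encodes an enzyme of estradiol synthesis, had log2 signals of 2.50, 1.43, 0.47 and 0.22 on wild type arrays 1 to 4 and 3.21, 2.52, 3.04 and 2.97 on VRK1-deficient arrays 1 to 4. As with Gdf15, wild type replicate 1 was the highest wild type array and lay next to the lowest VRK1-deficient array. This likeness follows from how the gene was chosen and is not a separate observation.

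A list of 47 other p53 target genes gave the rest of the pathway. A probe was found for 46, and 45 were tested. At a limma adjusted p under 0.05, 1 of the 45 was called higher and 0 were called lower, with 18 at an unadjusted p under 0.05 in either direction, a level reached by 28.8% of all tested probes. By the methods' t-test with the same adjustment, 0 were called, with 14 at an unadjusted p under 0.05, beside 26.2% of all tested probes. The median log2 change was 0.16, with 25 genes above 0 and 20 below 0, and 8 showed no overlap between genotypes, where 16.7% of all tested probes showed none.

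The gene called was Fas, a death receptor of the cell surface. On wild type arrays 1 to 4 the log2 signal was -2.65, -2.87, -2.60 and -2.65, and on VRK1-deficient arrays 1 to 4 it was -2.19, -2.17, -2.11 and -2.34. All 4 VRK1-deficient arrays were higher than all wild type arrays, with a log2 change of 0.49 (SE 0.11, limma adjusted p = 0.0492). Slides 1 and 2 gave 0.59 and 0.40. Its limma adjusted p, 0.0154 when wild type replicate 1 was dropped, ranged from 0.0641 to 0.15 on dropping any other single array, and over all alternatives it lay between 0.0154 and 0.50. With slide or replicate as a block it was 0.0538 and 0.0556. The change stayed at 0.43 to 0.54 on dropping any single array other than wild type replicate 1. A second Fas probe was not bright enough to be tested.

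The other targets were grouped by function. In the group of arrest and feedback genes, 0 of 12 were called by limma and 5 had an unadjusted p under 0.05, with 6 above 0 and 6 below 0. The widest changes were 0.93 for Ptprv, a receptor phosphatase, and -0.51 for Gadd45a, which acts in arrest and repair. Leaving out 1 array moved Ptprv between 0.38 and 1.43, and it was 0.03 within slide 1. In the apoptosis group, Fas alone was called among 13, and 6 had an unadjusted p under 0.05. The brightest Aen probe was named through a synonym and lies on another chromosome than 2 dimmer Aen probes. All 3 had changes below 0 (-0.42, -0.32 and -0.37) and were not called. Bax, the pore-forming protein of mitochondrial apoptosis, had a log2 change of -0.12 (SE 0.12).

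Among the DNA repair genes 0 of 6 tested were called by limma and 3 had an unadjusted p under 0.05. Ddb2 and Xpc, both of which recognise damage in nucleotide excision repair, had changes of -0.52 and -0.42. Polk, a translesion polymerase chosen after its value was seen, had a change of 0.36 without overlap (limma adjusted p = 0.0687). A second Polk probe was not bright enough to be tested. In the group of metabolism and matrix genes 0 of 14 were called and 4 had an unadjusted p under 0.05. In this group Ddit4, which encodes an inhibitor of mTORC1, had a change of 0.63, with 0.27 to 0.90 when 1 array was left out. Without wild type replicate 1, 19 of the other p53 targets were called, beside 28.4% of all tested probes, and on dropping any other single array 0 were, beside 0.0111% to 0.252%.

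Outside the rule for named genes, Pmaip1, Eda2r, Bid and Tnfrsf10b were chosen after their values were seen. Pmaip1, which encodes the BH3-only protein NOXA, had log2 signals of 0.02, -1.72, -1.35 and -2.08 on wild type arrays 1 to 4 and 0.15, -0.15, 0.02 and 0.03 on VRK1-deficient arrays 1 to 4. Wild type replicate 1 lay among the VRK1-deficient arrays, and the other wild type arrays were lower. The log2 change was 1.29 (limma adjusted p = 0.0767), and 1.73 (limma adjusted p = 0.00323) without that array, where a wider change follows from its place among the VRK1-deficient arrays. The limma adjusted p was 0.12 to 0.196 on dropping any other single array, with a range of 0.00323 to 0.596 over all alternatives. Eda2r, a cell surface receptor, and Bid, a BH3-only protein, had changes of 0.61 and -0.53 without overlap between genotypes (limma adjusted p = 0.0538 and 0.0615). The other Eda2r probes were not bright enough to be tested. For Bid the gap was narrow, from -0.039 in wild type replicate 1 to -0.043 in VRK1-deficient replicate 2. Tnfrsf10b, a death receptor like Fas, had a change of -0.76 with overlap (limma adjusted p = 0.111). The change was -1.01 without wild type replicate 1 and -0.44 with normexp background correction. With replicate as a block, the limma adjusted p was 0.0377 for Tnfrsf10b, 0.0497 for Pmaip1, 0.0501 for Eda2r and 0.0611 for Bid. That block called 8.44% of all tested probes.

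**Figure D2:**
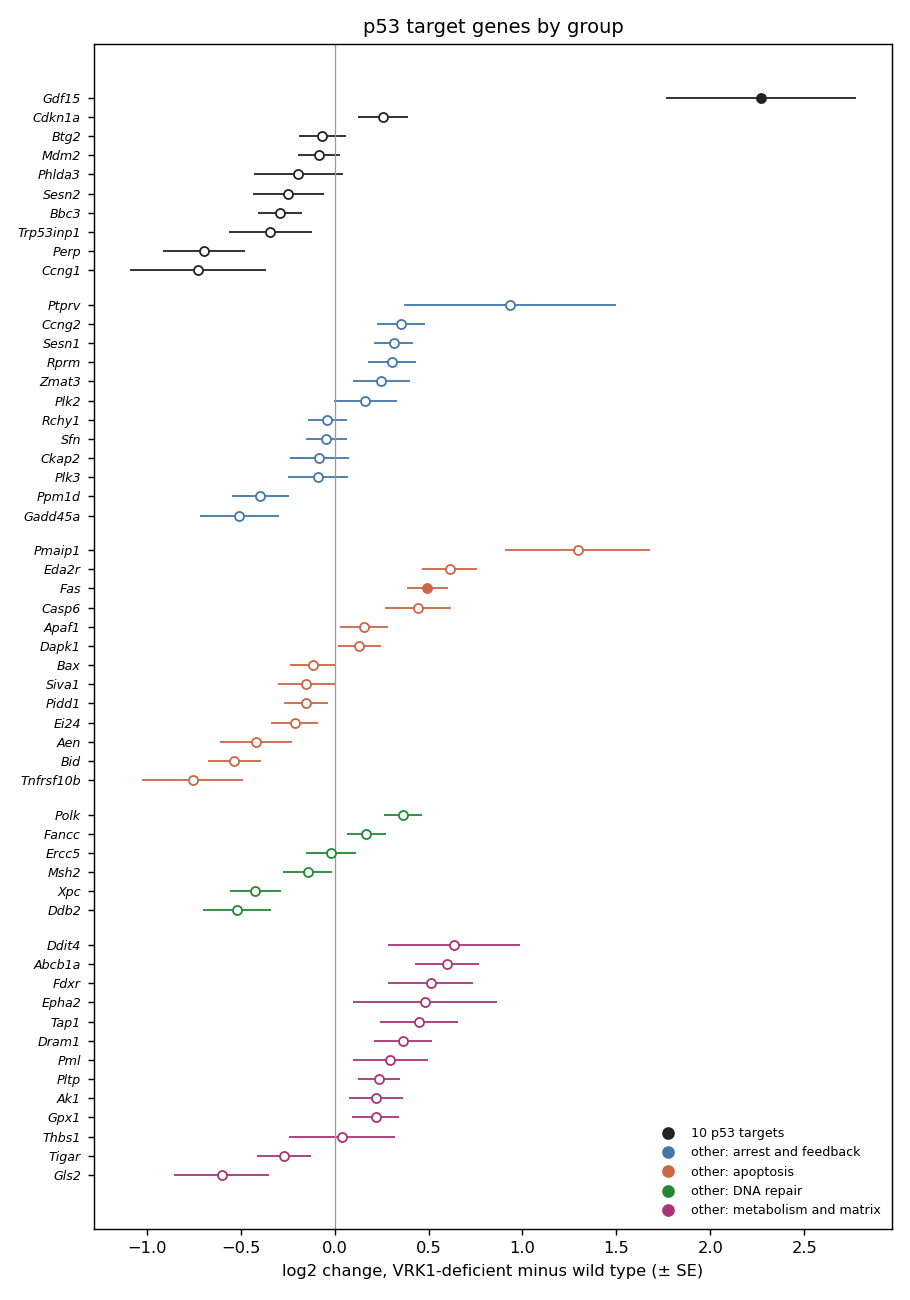
Log2 change (VRK1-deficient minus wild type, 4 against 4 arrays) of the 10 p53 target genes and of 44 other p53 targets by group, with SE bars from limma. Filled points in the plot mark Gdf15 and Fas, called at an adjusted p under 0.05, and open points mark genes not called.

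The genes that act on p53 were examined with a list of 21, of which 20 had a probe and all of those were tested. Of these, 0 were called higher and 2 lower, Vrk1 and Cdkn2a, beside 3.66% of all tested probes called in either direction. Vrk1 is the trapped gene that defines the genotypes, so its call is not a result about the list. An unadjusted p under 0.05 was reached by 7, Vrk1 among them, beside 28.8% of all tested probes. Cdkn2a encodes both p16 and ARF, the inhibitor of MDM2, and the transcript read by its probe was not determined. Wild type arrays 1 to 4 read -2.32, -1.10, -1.17 and -0.96, and VRK1-deficient arrays 1 to 4 read -3.02, -2.86, -2.59 and -2.77. All VRK1-deficient arrays were lower, and wild type replicate 1 was the lowest wild type array. The change was -1.42 (SE 0.28, limma adjusted p = 0.0454), with -1.23 within slide 1 and -1.61 within slide 2. The limma adjusted p fell to 0.00323 with wild type replicate 1 left out, and over all alternatives it was 0.00323 to 0.50. On dropping any other single array it ranged from 0.0713 to 0.147, while the change stayed at -1.49 to -1.28.

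The mRNA of p53 itself was not called. The 2 Trp53 probes had changes of -0.10 and 0.08 (limma adjusted p = 0.635 and 0.728). Mdm4 had 5 probes that disagreed. The brightest had a change of 0.28 (limma adjusted p = 0.254), and the others of -0.78, -0.13, -0.52 and -0.10, of which the first had a limma adjusted p of 0.0473. Trp63, a relative of p53 expressed in germ cells and chosen after its value was seen, had a change of 0.53 (limma adjusted p = 0.0701). The other Trp63 probes were not bright enough to be tested.

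Gdf15 and Sesn2 are also targets of the integrated stress response, in which ATF4 is the main transcription factor. Of 18 genes listed for this pathway, 16 had a probe and 15 were tested, and 0 were called higher and 1 lower. Atf4 had a change of 0.02 and Ddit3, which encodes the factor CHOP, one of 0.12 (limma adjusted p = 0.949 and 0.633). Chac1, which encodes an enzyme that degrades glutathione and was chosen after its value was seen, had the widest change of the list, -1.45 (limma adjusted p = 0.221). Wild type replicate 1 (0.67) lay far above the other wild type arrays (-3.02 to -2.29), and without it the change was -0.59. The gene called was Trib3, a pseudokinase gene induced by ATF4 and CHOP. On wild type arrays 1 to 4 the log2 signal was 0.86, 0.11, 0.19 and 0.07, and on VRK1-deficient arrays 1 to 4 it was -0.48, -0.34, -0.52 and -0.83. All VRK1-deficient arrays were lower, the opposite direction to Gdf15. The change was -0.85 (SE 0.19, limma adjusted p = 0.0494), and -0.89 and -0.81 within slides 1 and 2. A second Trib3 probe had a change of -0.63 (limma adjusted p = 0.201). For the first, the limma adjusted p fell to 0.00999 with wild type replicate 1 left out, and its range over all alternatives was 0.00999 to 0.50. On dropping any other single array it ranged from 0.0735 to 0.147, while the change stayed at -0.93 to -0.75. The part of this pathway in the Gdf15 difference was not tested.

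Cell cycle genes that p53 lowers through p21 were taken as a further readout. Of 18 genes, 1 was called higher and 0 lower, beside 3.66% of all tested probes called in either direction. An unadjusted p under 0.05 was reached by 4, beside 28.8% of all tested probes. The median log2 change of the 18 was 0.01. Cdk1, the kinase that drives entry into mitosis, changed by 0.48 (SE 0.11, limma adjusted p = 0.0492), with 0.45 within slide 1 and 0.51 within slide 2, and all 4 VRK1-deficient arrays were higher. Its limma adjusted p fell to 0.00867 with wild type replicate 1 left out and ranged up to 0.50 over all alternatives. On dropping any other single array it ranged from 0.0713 to 0.15, while the change stayed at 0.44 to 0.51. The call was lost with slide or replicate as a block (limma adjusted p = 0.0507 and 0.056). Cenpa, Cdc20 and Mybl2, which act at centromeres, in anaphase and in cell cycle transcription, were chosen after their values were seen. They had changes of 0.60, -0.36 and -0.50 (limma adjusted p = 0.139, 0.124 and 0.0856), without overlap for Cdc20. Without wild type replicate 1 these changes were 0.39, -0.40 and -0.62. Second probes of Cdk1 and Cenpa were not bright enough to be tested.

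Markers of the cells of the testis were set beside Gdf15 as summed linear signals, with the 75th percentile of the array as 1. Of 12 germ cell markers 11 had a probe and all were tested, with 1 called lower, all 11 at an unadjusted p under 0.05 and 10 changes below 0. Their sum was 86.6, 156, 218 and 193 on wild type arrays 1 to 4 and 54.8, 95.7, 94.3 and 70.3 on VRK1-deficient arrays 1 to 4. Wild type replicate 1 had the lowest sum of its group, below 2 VRK1-deficient arrays, and it also had the highest Gdf15 signal of its group. Uchl1 gave the strongest signal of the list, and no germ cell marker with a probe was below background on all arrays. The marker called was Sall4, a factor of spermatogonia, with a change of -0.99 (limma adjusted p = 0.0491), while a second probe had a change of -0.33, and the call was lost with slide as a block (limma adjusted p = 0.0538). Gfra1, a receptor of undifferentiated spermatogonia chosen after its value was seen, was the marker above 0, with a change of 0.54 without overlap (limma adjusted p = 0.0776).

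All 12 Sertoli cell markers were tested and 0 were called by limma, with 10 changes above 0. An unadjusted p under 0.05 was reached by 7, beside 28.8% of all tested probes. The sum of all 12 was 380, 277, 270 and 250 on wild type arrays 1 to 4. It was 402, 336, 336 and 385 on VRK1-deficient arrays 1 to 4. Here too wild type replicate 1 lay among the VRK1-deficient arrays. Clu gave the strongest signal, 42.2% to 46.9% of the sum over the 8 arrays. The widest changes were those of Amh (1.19) and Fshr (1.09), which encode anti-Müllerian hormone and the receptor of follicle-stimulating hormone. Amh ranged from 0.90 to 1.65 and Fshr from 0.80 to 1.30 when 1 array was left out, and they were 0.49 and 0.63 within slide 1. Of the 7, Rhox5 (-1.08) and Cldn11 (-0.29), both chosen after their values were seen, were lower. They encode a homeobox factor and a protein of tight junctions. Over 20 alternatives Fshr was called in 5, Amh in 2, Rhox5 in 2 and Cldn11 in 0. With replicate as a block, the limma adjusted p was 0.0422 for Fshr and 0.0423 for Rhox5, where 8.44% of all tested probes were called. The part of germ and Sertoli cell numbers in the Gdf15 difference was not tested.

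**Figure D3:**
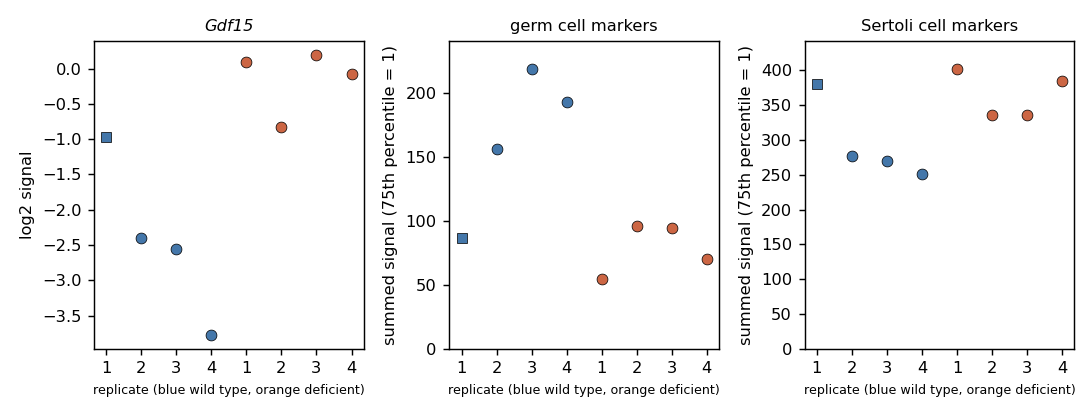
Gdf15 log2 signal and the summed linear signal of 11 germ cell and 12 Sertoli cell markers on each array (75th percentile of the array as 1). Squares mark wild type replicate 1, which has the highest Gdf15 signal, the lowest germ cell sum and the highest Sertoli cell sum of the wild type arrays.

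Of 6 mast cell markers 5 were tested, and 4 were called higher, namely Cpa3 (1.90), Tpsb2 (1.59), Cma1 (1.54) and Mcpt4 (1.51), which encode granule proteases. With normexp background correction these changes were 0.80, 0.58, 1.04 and 0.87, so their size depended on how background was handled. The sum of the list was 6.44, 3.88, 3.70 and 4.14 on wild type arrays 1 to 4 and 6.98, 5.78, 5.20 and 5.77 on VRK1-deficient arrays 1 to 4. Hdc, which was not called, gave between 86.3% and 95.9% of that sum. Fcer1a was well above background on 1 array of each genotype and was not tested for a difference. The part of mast cells in the Gdf15 difference was not tested.

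The other marker lists were examined last. Of 7 Leydig cell markers 0 were called by limma, with 3 at an unadjusted p under 0.05, and the widest changes were those of Nr5a1 (0.81, second probe 0.39) and Lhcgr (0.43). Of 6 peritubular myoid cell markers 1 was called, Cnn1, which encodes calponin 1 (-0.99, limma adjusted p = 0.0445). Of 8 tested macrophage markers 0 were called, with 0 at an unadjusted p under 0.05. Lyz2 (0.26) and C1qa (0.14) had the widest changes, with 0.71 for a second Lyz2 probe (limma adjusted p = 0.0585). On the brightest probes, Lyz2 was 0.12 and C1qa 0.08 without wild type replicate 2. Lyz2 was 0.48 within slide 1 and 0.03 within slide 2. Of 6 endothelial cell markers 0 were called and 1 had an unadjusted p under 0.05. Tek (0.37, second probe -0.086) and Kdr (0.35, second probe too dim to be tested) had the widest changes. Of 3 tested red blood cell markers 0 were called, with 0 at an unadjusted p under 0.05, and Slc4a1 (-0.41) and Alas2 (-0.35) had the widest changes. On dropping each of the 7 other arrays in turn, Vrk1 kept its call throughout, Cpa3 was called in 1 of the 7 cases, and Sall4, Cnn1, Tpsb2, Cma1 and Mcpt4 were called in 0 of them. Only 3 to 68 of all tested probes were called in those cases, and the changes stayed about as large, for example 1.36 to 1.63 for Cma1 and -1.09 to -0.90 for Cnn1.

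The half-site bound by p53, a consensus of 10 bases that reads alike on both strands, was looked for in RefSeq promoter windows of build GRCm38.p6, from 250 bases before to 50 after the transcription start. Of the 10 genes 8 matched a window, and 3 had a match, Cdkn1a in 1 of its 2 windows, Mdm2 and Ccng1. Gdf15 (2 windows), Bbc3 (3 windows), Sesn2, Phlda3 and Btg2 had none, and Trp53inp1 and Perp had no entry. Among all 32851 windows, 8.36% held the half-site, and among all 27025 symbols 9.55% had it in at least 1 window. A match is a description of the letters and not of binding. The lack of a match holds for exact matches in these windows only, and p53 sites elsewhere were not looked for. The matching stretches are shown with the half-sites in capitals, to set the classic targets beside Gdf15. The Cdkn1a stretch is chr17:29090891-29090952 on the plus strand, with half-sites that begin 73 and 51 bases before the start. The Mdm2 stretch is chr10:117710920-117710959 on the minus strand, 186 bases before the start, and the Ccng1 stretch is chr11:40755447-40755486 on the minus strand, 185 bases before the start.
Cdkn1a: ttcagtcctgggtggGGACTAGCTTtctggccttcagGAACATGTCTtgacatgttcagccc
Mdm2: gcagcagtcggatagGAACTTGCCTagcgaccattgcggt
Ccng1: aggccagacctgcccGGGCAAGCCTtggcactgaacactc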

How the data were processed

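Testes of 4 wild type and 4 VRK1-deficient mice were measured on 1 array each. Signals were extracted by the authors with Agilent Feature Extraction 9.5.3.1, per the submitters' processing notes, and are linear intensities with the background subtracted and no scaling between arrays. The value table held the same intensities. Spots marked as outliers were left out, the log2 intensities were scaled by subtracting the log2 of each array's 75th percentile, and spots of a probe were averaged. That percentile was 642 to 851 on wild type and 548 to 745 on VRK1-deficient arrays. Probes were named with RefSeq gene records by accession (22951), symbol (6659) or synonym (3109), and 8455 kept the name in the files. Members were found by the name in the array files. A gene was represented by its brightest probe. Probes well above background, in at least as many of their spots as not, on at least 4 of 8 arrays were compared with limma 3.58.1 in R 4.3.3, with Benjamini-Hochberg adjustment over all of them. Probe positions are those of the files, build mm7. The members and lists were chosen with earlier results of these data known. Genes were named if they were members, if they were called within a list (up to 6) or else had the 2 widest changes of it, together with Trp53, Mdm4, Vrk1, Atf4, Ddit3 and Bax, and the 5 genes most like Gdf15. A gene counted in the lists is not reported here by name or in the figures. The lists were other p53 targets, regulators of p53, integrated stress response, cell cycle genes and markers of germ, Sertoli, Leydig, peritubular myoid, macrophage, endothelial, mast and red blood cells. The comparison was tested on simulated data before use. Alternatives were quantile normalization, no scaling, normexp correction (offset 50), other filters, an intensity trend with robust variances, the methods' t-test, dropping single arrays, blocks for replicate number or slide, analysis within each slide, and averaging the probes of each gene. Python 3.11.15 with pandas 2.3.3, numpy 2.4.6 and matplotlib 3.10.9 was used for the summaries and figures.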

Additional observations from a re-analysis of the deposited data

Results flagged for a closer look

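In 134 groups of 4 arrays, 1 for each genotype of most genes named and of each summed marker list, 12 had 1 array far from the other 3, by Dixon's test of the gap to the nearest array over the range. Chance flags about 1 in 20 groups, and genes on the same arrays are not independent. Some flagged genes were chosen after their values were seen (Bid, Tnfrsf10b and Cldn11) or for their profile over the arrays (8030423J24Rik). The 12 flags can therefore not be set against that rate.

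Wild type replicate 1 was the distant array in 7 of the 12. It was low for Ccng1 (1.27, where the rest of its group read 2.56 to 2.70), Perp (-3.57, against -2.68 to -2.58), Cdkn2a (-2.32, against -1.17 to -0.96), Bid (-0.039, against 0.37 to 0.44) and Tnfrsf10b (-2.74, against -1.77 to -1.69). It was high for Trib3 (0.86, against 0.07 to 0.19) and for the summed mast cell markers (6.44, against 3.70 to 4.14).

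VRK1-deficient replicate 1 was low for Cdkn1a (-1.94, against -1.63 to -1.58) and Mdm2 (-0.12, against 0.02 to 0.05). VRK1-deficient replicate 2 was low for 8030423J24Rik (-4.96, against -4.22 to -4.14). VRK1-deficient replicate 3 was low for Cldn11 (1.87, against 2.11 to 2.15). VRK1-deficient replicate 4 was high for Ddb2 (0.54, against 0.51 to 0.52), where the whole range was narrow.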

How the results depend on the processing

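The count of probes called depended most on single arrays. It was 986 in the main setting and 3 to 7655 with 1 array left out, where the highest came without wild type replicate 1 and the others were 3 to 68. It was 17 with no filter on dim probes, 1915 with an intensity trend and robust variances and 162 with the methods' t-test after adjustment. At an unadjusted t-test p under 0.05, the reading taken here of the methods' cutoff of 0.05, it was 7066. With limma the count was 641 with slide as a block, 3 on slide 1 alone, 1061 on slide 2 alone and 2275 with the replicate block. Without scaling between arrays 64 probes were called higher and 852 lower, beside 451 and 535 in the main setting.

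The count of the 10 genes called was 0 with quantile normalization, with no filter, with the methods' t-test, with slide as a block and on slide 1 alone, 2 on slide 2 alone (Gdf15 and Perp), and 0 to 4 with 1 array left out. In the settings with a count of 0, 1 to 4 of the genes had an unadjusted p under 0.05, where 9.88% to 30.3% of all tested probes did. For the other p53 targets the count was 0 without scaling, with no filter, with the methods' t-test, with slide as a block and on slide 1 alone, 2 with normexp, with the filter on all 8 arrays, with the intensity trend, with the replicate block and with the mean of all probes, and 0 to 19 with 1 array left out. The cause of these differences was not tested.

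The median log2 change of the 10 genes stayed below 0 in all 20 alternatives, from -0.40 to -0.10, and from -0.27 to -0.11 with 1 array left out. Gdf15 stayed above 0 in all 20, from 1.31 to 3.22, and was called in 8. The other filters, the intensity trend, the methods' t-test and the blocks did not move these log2 changes and could not. Agreement in sign in those settings was therefore fixed in advance. The same holds for Gdf15 on averaging the probes of a gene, since it had a single probe. Without scaling and with normexp the median of all probes was -0.14 and 0.12, and relative to it Gdf15 changed by 2.23 and 1.72 and the median of the 10 genes was -0.26 and -0.36.

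Changes that reversed sign were all of genes whose brightest probe was not called, although a dimmer Mdm4 probe was called. Of the 10 genes these were Phlda3 (0.011 without wild type replicate 3), Btg2 (0.00084 without VRK1-deficient replicate 3) and Sesn2 (0.12 on slide 2 alone). Of the other named genes they were C1qa (-0.041) without scaling, Slc4a1 (0.043) and Alas2 (0.034) on slide 1 alone, Mdm4 (-0.25) with the mean of all probes, and Ddit3 (-0.062 without scaling, -0.00175 on slide 1 alone). Atf4 was -0.16 without scaling, -0.059 with normexp, -0.14 on slide 1 alone and -0.12 to 0.19 with 1 array left out, below 0 in 2 of those 8 cases. Of the other values of most named genes outside the 10, 718 kept direction and side of the threshold, 116 lost a call and 33 gained one. Direction was fixed in advance in the settings that could not move a log2 change.

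Replicate numbers were not treated as pairs. The correlations of deviations between arrays of the same number were 0.47, 0.07, 0.19 and -0.14, and wild type replicates 1, 2 and 3 but not 4 matched their own number best. With the replicate block, 2275 probes were called. All probes of the 10 genes were well above background, but with normexp Perp was -0.27 and Gdf15 1.83.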
